A study of Mus musculus with 6 samples.

Results

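The distal intergenic ATAC-seq peaks that lie within 50 kb of an annotated transcription start were examined in mouse non-small cell lung cancer (NSCLC) organoids that were sensitive or resistant to immunotherapy. Members were all peaks of the authors' deposited table on chromosomes 1, 2, 4, 7, 9, 10, 11 and 13 that were at most 5 kb wide, were annotated as distal intergenic and had a distance of at most 50 kb to the nearest start. These criteria found 14986 of the 214414 peaks. Width and position come from the same libraries as the fold changes, and the 8 chromosomes were picked with results of these data known, so their small regional shifts are a property of the choice and not a finding.

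ATAC-seq inserts sequencing adapters into accessible DNA with a transposase, so that read counts over a region measure how open its chromatin is. The series holds 6 libraries, 3 from sensitive and 3 from resistant organoids, and its title names cancer cell-expressed collagens as a barrier in acquired resistance. The labels give the cell type as NSCLC, and they give no genotype, strain, driver allele, age of the source animals or treatment at harvest for either group. Nothing in the labels ties the 3 libraries of each group to independent cultures, so p-values reflect only how much these particular libraries vary, which may be technical. The number of organoid lines behind each group is not given in the sources used here either.

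Open chromatin between genes often marks enhancers, which are stretches of DNA bound by transcription factors that raise the activity of a gene at a distance through contact with its promoter. The nearest start is only a rough guide to the gene that an enhancer serves. Intergenic open sites can also be starts of long noncoding RNAs (lncRNAs), insulator sites or promoters that an annotation lacks.

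The deposited values are a finished comparison: for each peak a mean normalized count over the 6 libraries, a log2 fold change with its standard error (SE), and a p-value adjusted over all peaks that have one. A positive log2 fold change stands for more accessible chromatin in the resistant group, a sign taken only from how the authors' deposited table is titled. Values per library are not shown, because the 6 columns that hold them have names that match no label. Below, a member is called higher or lower where its adjusted p in the authors' deposited table is under 0.05, and tested where it has an adjusted p. In bulk libraries, a smaller share of cells with an open site and less opening per cell cannot be told apart.

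Of the 14986 members, 226 (1.51%) lay over a RefSeq transcription start, 217 of them over the start of a lncRNA gene and 9 over that of a protein-coding gene. Sequence can be read from these members alone, since RefSeq (GRCm38.p6, the same assembly as the mm10 build of the deposited coordinates) gives the 250 bases before and 50 bases after each start. Among the assigned genes, 5274 were found in RefSeq, and the interval of 5265 of them (99.8%) overlapped the deposited one. By RefSeq, 2230 of the 14986 members (14.9%) lay in a gene despite their deposited annotation, 1749 in a lncRNA gene and 383 in a protein-coding one. That share was 12.4% of higher, 20.9% of lower and 17.3% of uncalled members, a difference that was not tested. The 4 windows below are those held whole by the called members with the smallest adjusted p in each direction, and they are shown because they are the DNA of changed members. Sequences run 5′ to 3′, and capitals mark matches to the motifs searched.
Gm34483, in a member assigned to Cd44 (chr2:102940812-102941111, plus strand): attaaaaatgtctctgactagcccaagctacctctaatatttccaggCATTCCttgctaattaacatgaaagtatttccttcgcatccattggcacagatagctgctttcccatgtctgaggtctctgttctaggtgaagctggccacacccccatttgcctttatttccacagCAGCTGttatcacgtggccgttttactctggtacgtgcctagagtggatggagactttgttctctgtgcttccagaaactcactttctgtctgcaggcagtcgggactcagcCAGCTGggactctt
Gm52066, in a member assigned to Smad5 (chr13:56765719-56766018, minus strand): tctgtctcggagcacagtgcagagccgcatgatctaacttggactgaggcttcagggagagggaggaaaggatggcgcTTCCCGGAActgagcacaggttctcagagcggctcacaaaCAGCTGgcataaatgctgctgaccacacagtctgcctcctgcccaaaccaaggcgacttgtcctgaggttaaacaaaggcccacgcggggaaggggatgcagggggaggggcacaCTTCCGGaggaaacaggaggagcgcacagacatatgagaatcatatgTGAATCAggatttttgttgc
Gm30242, in a member assigned to Cdk18 (chr1:132150345-132150644, plus strand): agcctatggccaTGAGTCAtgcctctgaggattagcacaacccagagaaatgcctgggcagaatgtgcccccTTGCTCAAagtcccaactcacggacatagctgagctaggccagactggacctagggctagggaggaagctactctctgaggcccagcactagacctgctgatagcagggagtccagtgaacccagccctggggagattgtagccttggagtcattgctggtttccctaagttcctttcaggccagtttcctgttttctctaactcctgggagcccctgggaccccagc
Gm34999, in a member assigned to 4930583K01Rik (chr7:118259662-118259961, plus strand): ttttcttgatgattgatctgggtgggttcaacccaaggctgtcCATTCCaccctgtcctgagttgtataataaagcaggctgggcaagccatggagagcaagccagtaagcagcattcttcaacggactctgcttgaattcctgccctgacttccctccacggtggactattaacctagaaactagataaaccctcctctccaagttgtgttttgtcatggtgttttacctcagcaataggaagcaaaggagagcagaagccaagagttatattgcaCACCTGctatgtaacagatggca

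The windows of the 2 higher members were those of Gm34483 and Gm52066, both predicted lncRNA genes. The member over the Gm34483 start (chr2:102939560-102941650, 37.9 kb from Cd44, which encodes a hyaluronan receptor) had a log2 fold change of 1.19 ± 0.29 (SE, adjusted p = 0.00109) in the authors' deposited table. The one over the Gm52066 start (chr13:56765550-56766780, assigned to Smad5, which encodes a signal transducer of BMP receptors, at a deposited distance of 32.5 kb and 61.9 kb from the RefSeq start) was at 1.49 ± 0.41 (adjusted p = 0.00453) in the authors' deposited table. Its capitals mark 1 match each of AP-1 (TGANTCA), ETS (CCGGAAG), STAT (TTCCNNGAA) and the E-box CAGCTG, where the STAT match is the run TTCCCGGAA. The Gm34483 window held 1 match of TEAD (GGAATG, read on the other strand as CATTCC) and 2 of CAGCTG.

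The windows of the lower members were those of Gm30242 and Gm34999. The member over the Gm30242 start (chr1:132149060-132152720, 9.38 kb from Cdk18, a cyclin-dependent kinase gene) fell by 1.67 ± 0.21 on the log2 scale (adjusted p = 9.7e-13) in the authors' deposited table. The one over the Gm34999 start (chr7:118257200-118260490) fell by 1.40 ± 0.25 (adjusted p = 2.36e-06) in the authors' deposited table. The Gm30242 window held 1 match each of AP-1 and C/EBP (TTGCNNAA), and the Gm34999 window held 1 each of TEAD and the E-box CACCTG.

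Motifs were searched on both strands. AP-1 letters were in 7.81% of all 32851 RefSeq windows, TEAD in 14.7%, ETS in 8.86%, STAT in 4.81%, C/EBP in 10.8%, CAGCTG in 16.3% and CACCTG in 20.2%, so such matches are common. Of the windows held whole by tested members, 19 of 155 (12.3%) had AP-1 letters. They were in 4 of the 16 windows of called members (25.0%, Wilson 95% interval 10.2 to 49.5%) and in 15 of the 139 windows of uncalled ones (10.8%, 6.65 to 17.0%), and these intervals overlap and cover counting error only. In the central 200 bases of the windows the shares were 6.25 and 5.76%. KLF/SP letters (CCNCGCCC) were in 24.0% of all RefSeq windows and in 5 of the 155 windows of tested members (3.23%). Median GC content was 49.7% in uncalled members' windows, 46.5% in lower ones and 46.7% in higher ones, beside 52.7% in all RefSeq windows and 56.3% in those of protein-coding genes. Windows of uncalled members held a median of 4 CpG dinucleotides, all RefSeq windows 7 and those of protein-coding genes 13. The members' starts were thus poorer in GC and CpG than those of protein-coding genes, a difference that was not tested. The rule leaves out peaks annotated as promoters, and windows of lncRNA genes alone were not compared. The difference therefore cannot be told apart from the choice of members.

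Members over a RefSeq start were not called more often than others by a margin these counts can show. Of the 179 tested members over a start, 4 were called higher and 14 lower (10.1% called), and of the other tested members 8.95% were called. Their median mean counts were 30.2 and 23.6, and this difference was not taken into account, though calls were more frequent at high mean counts. A RefSeq start lay in 2.61% of higher members (Wilson 95% interval 1.02 to 6.53%), 3.37% of lower ones (2.02 to 5.57%) and 2.79% of uncalled ones (2.40 to 3.25%).

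Among members above the median mean count of 23.8, the largest changes belonged to those assigned to Col6a3 and Hhat among higher ones and to Tshz2 and Slc35f5 among lower ones. The RefSeq start windows of these genes are shown because the values of their own promoter peaks stand beside those members below. Capitals mark motif matches as above, with GRHL as AACCNGTT.
Col6a3 (chr1:90843922-90844221, minus strand): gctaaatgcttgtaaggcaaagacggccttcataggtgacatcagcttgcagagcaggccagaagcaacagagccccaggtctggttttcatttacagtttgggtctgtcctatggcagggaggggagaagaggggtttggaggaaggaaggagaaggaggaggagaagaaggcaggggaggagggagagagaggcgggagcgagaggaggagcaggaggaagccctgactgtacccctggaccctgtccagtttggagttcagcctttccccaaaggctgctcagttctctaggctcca
Hhat (chr1:192771170-192771469, minus strand): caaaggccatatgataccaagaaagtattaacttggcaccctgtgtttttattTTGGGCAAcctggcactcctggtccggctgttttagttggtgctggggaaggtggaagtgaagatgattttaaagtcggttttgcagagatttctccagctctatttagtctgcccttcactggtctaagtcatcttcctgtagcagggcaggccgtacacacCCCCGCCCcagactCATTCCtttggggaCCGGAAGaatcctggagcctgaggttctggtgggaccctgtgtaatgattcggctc
Tshz2 (chr2:169632259-169632558, plus strand): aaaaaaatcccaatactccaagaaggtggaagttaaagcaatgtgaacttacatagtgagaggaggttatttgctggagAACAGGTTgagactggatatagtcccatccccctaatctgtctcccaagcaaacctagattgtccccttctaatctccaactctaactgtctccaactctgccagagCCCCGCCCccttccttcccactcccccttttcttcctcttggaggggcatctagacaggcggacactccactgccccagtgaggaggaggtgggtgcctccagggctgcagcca
Slc35f5, first start (chr1:125560345-125560644, plus strand): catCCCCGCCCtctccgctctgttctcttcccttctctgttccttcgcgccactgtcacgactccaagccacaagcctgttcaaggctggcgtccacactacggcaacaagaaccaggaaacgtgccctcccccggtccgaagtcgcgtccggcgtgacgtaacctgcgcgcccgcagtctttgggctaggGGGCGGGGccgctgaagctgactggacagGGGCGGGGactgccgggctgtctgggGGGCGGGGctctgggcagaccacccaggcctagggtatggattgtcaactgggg
Slc35f5, second start (chr1:125560752-125561051, plus strand): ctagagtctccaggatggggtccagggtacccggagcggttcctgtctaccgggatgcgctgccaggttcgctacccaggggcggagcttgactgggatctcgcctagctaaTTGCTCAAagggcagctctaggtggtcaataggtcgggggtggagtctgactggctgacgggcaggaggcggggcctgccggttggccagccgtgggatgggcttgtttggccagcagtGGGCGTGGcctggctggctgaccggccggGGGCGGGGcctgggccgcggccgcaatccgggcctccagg

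The Slc35f5 windows were GC-rich (66.0 and 68.7% GC, 23 and 20 CpG), and their capitals are KLF/SP matches, 4 in the first and 2 in the second, beside 1 C/EBP match in the second. The Tshz2 window held 1 GRHL and 1 KLF/SP match at 52% GC. The Hhat window held 1 match each of TEAD, ETS, C/EBP and KLF/SP, and the Col6a3 window held none of the 21 motifs searched, which says only that these letters are not in it.

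Of the 14986 members, 6334 (42.3%) were tested, beside 47.7% of all peaks. The other 8652 had no adjusted p, with a median mean count of 9.11 and a highest of 14.7, and 218 of them had an unadjusted p under 0.05. Among tested members, 153 were called higher (2.42%) and 416 lower (6.57%) in resistant organoids. Across all 102173 tested peaks of the series, 12.4% were called, 5.02% higher and 7.34% lower. Across the 38385 tested peaks of the same 8 chromosomes, 2.38% were called higher and 8.23% lower. The members' share of higher calls was thus near that of their chromosomes and their share of lower calls was somewhat under it, differences that were not tested.

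Higher members had a median log2 fold change of 1.16 and lower ones of -1.05. A change of at least 2-fold was seen in 115 higher members (75.2%) and 237 lower ones (57.0%), and the smallest called size was 0.58 on the log2 scale. The median log2 fold change over all tested members was -0.10 (quartiles -0.42 and 0.20), beside -0.14 on the same chromosomes and -0.07 in all tested peaks. Chromosome segments shifted the values slightly: the median of all tested peaks in the 5 Mb windows that hold members ran from -0.43 to 0.21, and 97.6% of tested members lay in windows within 0.3 of 0. After each window's median was subtracted, the members' median was 0.03, with 170 members higher (2.68%, beside 1.90% of all tested peaks) and 233 lower (3.68%, beside 3.95%). The share of higher among called members was 26.9% as deposited, 42.2% after that subtraction and 36.6% after a trend with mean count was removed. Of the higher calls 142 (92.8%) remained after the subtraction, and of the lower calls 233 (56.0%).

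**Figure D1:**
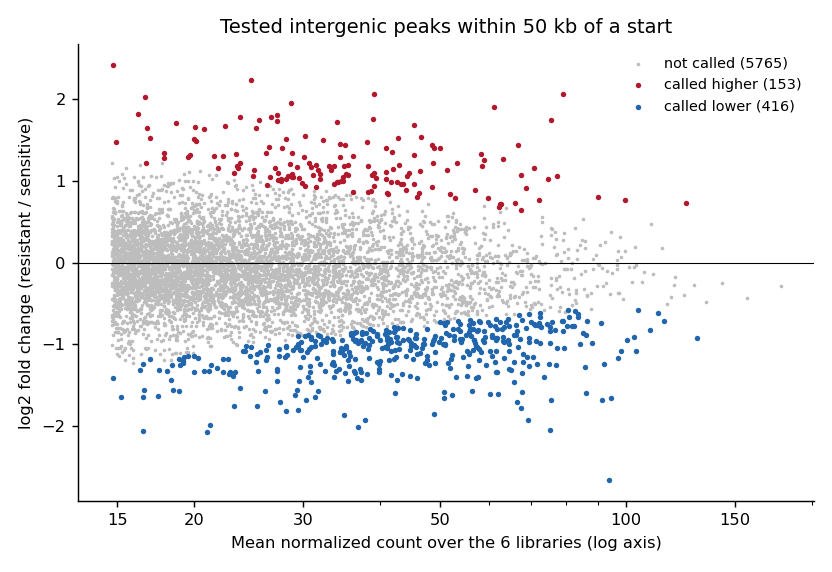
Each point is 1 of the 6334 tested members, with the mean normalized count over the 6 libraries on a log x axis and the log2 fold change (resistant over sensitive) on the y axis. The 153 members called higher are red and the 416 called lower are blue, and lower calls crowd at high mean counts.

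Members with higher mean counts were called more often, as the plot of fold change against mean count shows. Of the 1584 tested members with mean counts up to 18.2, 9 were called higher and 11 lower (1.26%). Of the 1584 with mean counts from 34.4 to 178, 77 were higher (4.86%) and 302 lower (19.1%), and the median log2 fold change was -0.23. Width followed mean count: lower calls made up 2.13% of tested members up to 1.5 kb wide and 21.4% of those from 4 to 5 kb. Called lower members had a median width of 2946 bp, called higher ones 2121 bp and uncalled ones 1991 bp. The part of depth and width in these shares was not tested.

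**Figure D2:**
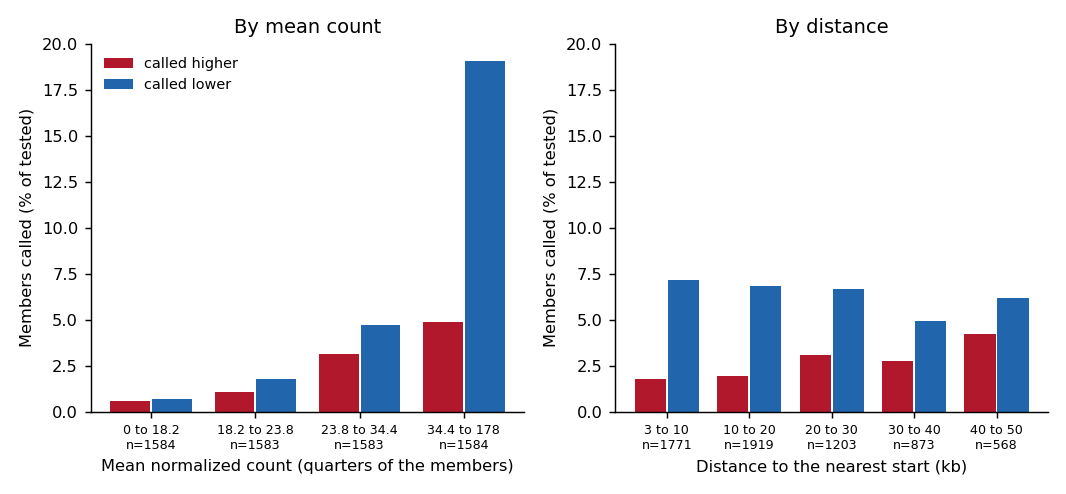
Bars give the share of tested members (%) called higher (red) and lower (blue) in 4 bins of mean normalized count (left) and by distance to the nearest start in kb (right). Lower calls reach 19.1% in the top bin of mean count, and the share of higher calls is 1.75% at 3 to 10 kb and 4.23% at 40 to 50 kb.

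The share of higher calls was larger at 40 to 50 kb from a start than at 3 to 10 kb, though it did not rise at every step. This difference was not tested. Between 3 and 10 kb, 1.75% of 1771 tested members were higher and 7.17% lower, and between 40 and 50 kb 4.23% of 568 were higher and 6.16% lower. In the bins between, from 10, 20 and 30 kb, the higher share was 1.93, 3.08 and 2.75% and the lower share 6.83, 6.65 and 4.93%. Among members above the median mean count, 3.00% were higher at 3 to 10 kb, 3.91% at 10 to 30 kb and 5.52% at 30 to 50 kb, while 13.2, 12.0 and 10.0% were lower. Below the median mean count the higher share was 0.552, 0.728 and 1.33%. Called higher members had a median distance of 21707 bp and called lower ones 15580 bp. By side, 2.37% of 4171 upstream ones were higher and 6.88% lower, and 2.50% of 2163 downstream ones were higher and 5.96% lower.

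At the limits of the rule, 8 of the 246 tested members from 45 to 50 kb were higher and 15 lower, and of the 255 otherwise alike peaks from 50 to 55 kb 14 were higher and 18 lower. Of the 337 tested members from 4 to 5 kb wide, 9 were higher and 72 lower, and of the 146 peaks from 5 to 6 kb 6 were higher and 46 lower.

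Among other classes of peak on the same chromosomes and of the same width, intergenic peaks beyond 50 kb had 4.45% higher and 6.33% lower calls of 3459 tested. Intron peaks had 2.91 and 6.38% of 8797, and promoter peaks within 1 kb of a start had 1.60 and 6.28% of 7792. Mean counts differ between these classes. At mean counts from 30 to 50, higher calls made up 4.82% of the members, 9.49% of intergenic peaks beyond 50 kb, 5.22% of intron peaks and 2.84% of promoter peaks within 1 kb. Lower calls made up 11.2, 13.3, 14.3 and 6.53% in that order. These are descriptions, and the classes were not tested against each other.

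The share of higher calls differed between chromosomes. Chromosome 1 had 36 higher and 60 lower of 831 tested members (4.33% higher, member median 0.00), and chromosome 11 had 8 higher and 59 lower of 1117 (0.716% higher, median -0.18). The median of all tested peaks was -0.05 on chromosome 1 and -0.21 on chromosome 11. The counts were 27 higher and 72 lower of 1044 on chromosome 2, 10 and 63 of 800 on chromosome 4, and 11 and 42 of 636 on chromosome 7. They were 17 and 39 of 614 on chromosome 9, 24 and 39 of 628 on chromosome 10, and 20 and 42 of 664 on chromosome 13. On chromosome 10, 12 of the 24 higher members lay in the 5 Mb window from 75 Mb, which holds the genes for collagen VI chains described next.

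Col6a2 and Col6a3 were the genes with the most called higher members, 7 and 4. Collagen VI is a microfibril-forming collagen of the pericellular matrix, built from the chains that Col6a1, Col6a2 and Col6a3 encode. Of the 8 tested members assigned to Col6a2, all upstream of its start at 9.63 to 44.4 kb, 7 were called higher. From the farthest to the nearest, their log2 fold changes in the authors' deposited table were 1.34 ± 0.25, 0.99 ± 0.34, 1.52 ± 0.35, 1.02 ± 0.33, 1.52 ± 0.30, 0.77 ± 0.32, 0.97 ± 0.30 and 0.96 ± 0.27 (SE). The one at 0.77 was not called (adjusted p = 0.102), and the adjusted p of the others ran from 6.01e-06 to 0.0307. All 8 values were positive, including the uncalled one. The Col6a2 promoter peak in the authors' deposited table was at 1.17 ± 0.35 (adjusted p = 0.0112). Together with 2 called members of Col6a1 (1.00 and 1.23 in the authors' deposited table, where the Col6a1 promoter peak is at 0.89 ± 0.23), they made a run of 9 called members over chr10:76633260-76733840. In that run all 11 tested members were positive, 12 of the 17 tested peaks of any class were called higher, and the 9 calls remained after the window median was subtracted. Across chromosome 10, 2.52% of all tested peaks were called higher, and the run was found through its calls.

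Col6a3, on chromosome 1, had 7 tested members, of which 4 were called higher within chr1:90737470-90755360. Their log2 fold changes in the authors' deposited table were 1.44 ± 0.25, 1.44 ± 0.30, 2.23 ± 0.42 and 1.16 ± 0.38, in order of position. The last was no longer called after the window median was subtracted (adjusted p = 0.0526). The other 3 members were not called, at 0.58 ± 0.33, 0.22 ± 0.45 and -0.38 ± 0.26 in the authors' deposited table. The deposited distance of the 4 called members, 17.9 to 32.1 kb, runs to the start of a short transcript. From the RefSeq start of Col6a3, whose window is printed above, they lie 88.6 to 103 kb away. The strongest peak annotated to a Col6a3 promoter (chr1:90837190-90841150) was at 1.31 ± 0.24 in the authors' deposited table (adjusted p = 2.32e-06). The peak over the RefSeq start itself had a mean count of 8.21 and no adjusted p there.

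The same check over all tested members shows how far the nearest-start distance can be trusted. For 5064 tested members the assigned gene has a RefSeq start, and in 4039 of them (79.8%) the deposited distance was within 2 kb of the distance to it. In 456 (9.0%) every RefSeq start of the assigned gene lay beyond 50 kb, including 19 of 129 called higher (14.7%) and 27 of 324 called lower (8.33%).

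**Figure D3:**
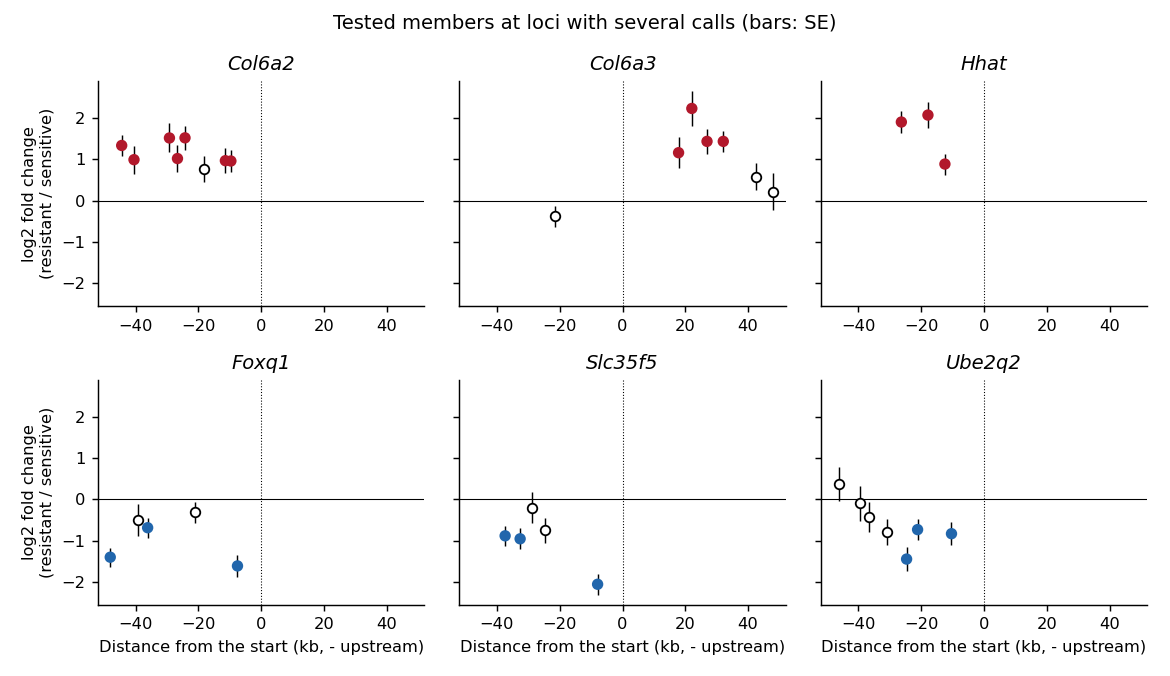
Log2 fold change (resistant over sensitive, bars are the SE) of every tested member assigned to 6 genes, against the deposited distance from the start in kb, negative for upstream. Filled points were called (red higher, blue lower) and open points were not; 7 of 8 Col6a2 members and 3 of 3 Hhat members were called higher.

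Hhat encodes the acyltransferase that attaches palmitate to Hedgehog proteins. All 3 of its tested members were called higher, at 1.90 ± 0.26, 2.07 ± 0.32 and 0.89 ± 0.26 in the authors' deposited table, from 26.3 to 12.4 kb upstream. The strongest peak annotated to an Hhat promoter was at 1.01 ± 0.27 (adjusted p = 0.00272) in the authors' deposited table, while the peak that holds the printed RefSeq window was at 0.52 ± 0.36 (adjusted p = 0.397). Mroh9 had 3 of 4 tested members higher, at 1.71 ± 0.44, 1.73 ± 0.35 and 1.22 ± 0.27 in the authors' deposited table, and the uncalled member was at -0.02 ± 0.44. Col6a2, Col6a3, Hhat and Mroh9 were the 4 genes with at least 3 higher members, of 780 genes with at least 3 tested members. Pairs of higher members were also assigned to Col5a1, a fibrillar collagen gene (1.54 and 1.29 in the authors' deposited table, promoter peak 1.38 ± 0.22). Another pair belonged to Ccn5, a gene of a secreted matricellular protein.

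Foxq1, Slc35f5 and Ube2q2 were the 3 genes with at least 3 lower members. Foxq1 encodes a forkhead transcription factor, and 3 of its 5 tested members were lower, at -1.40 ± 0.23, -0.69 ± 0.24 and -1.61 ± 0.26 in the authors' deposited table. The Foxq1 promoter peak fell by 1.05 ± 0.19 in the authors' deposited table (adjusted p = 1.13e-06). Of the 5 tested members of Slc35f5, a solute carrier gene, 3 were lower, at -2.06 ± 0.25, -0.96 ± 0.26 and -0.88 ± 0.25 in the authors' deposited table. The peak over both printed Slc35f5 windows was at -0.44 ± 0.20 in the authors' deposited table and was not called (adjusted p = 0.138). Ube2q2, a ubiquitin-conjugating enzyme gene, had 3 lower members among 7 tested, at -1.45 ± 0.29, -0.73 ± 0.26 and -0.83 ± 0.27 in the authors' deposited table. After the window median was subtracted, 1 of the Slc35f5 calls remained (the others had adjusted p of 0.0702 and 0.114), and 2 each of Foxq1 (0.188 for the third) and Ube2q2 (0.0711).

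The largest changes among members above the median mean count of 23.8, taking 1 member per gene and leaving out predicted genes, are given with the promoter peaks of those genes. Beside Col6a3 and Hhat, the higher ones were Ccn5 at 2.07 ± 0.25 (chr2:163811820-163815520, 5.34 kb upstream, adjusted p = 2.52e-14) and Prg4, the lubricin gene, at 1.95 ± 0.36 in the authors' deposited table. The Ccn5 promoter peak was at 0.51 ± 0.27 there and was not called (adjusted p = 0.245 in the authors' deposited table). A second Ccn5 member, 18.8 kb upstream, was at 1.74 ± 0.23 in the authors' deposited table. Members of Eya3, Gorab, Ephb1 and Anks1b lay between 1.74 and 1.78 in the authors' deposited table. Eya3 encodes a transcriptional coactivator with phosphatase activity, and Ephb1 encodes an ephrin receptor. The promoter peaks of Prg4, Eya3, Gorab, Ephb1 and Anks1b were not called, with values from -0.11 to 0.74 in the authors' deposited table.

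Tshz2, which encodes a zinc finger transcription factor, had the member with the largest fall. This member (chr2:169588350-169591890, 41.1 kb upstream) fell by 2.67 ± 0.25 on the log2 scale (adjusted p = 5.79e-24) in the authors' deposited table. A second Tshz2 member, 15.3 kb upstream, fell by 1.94 ± 0.26 in the authors' deposited table, and the third was not called at -0.71 ± 0.32. The promoter peak that holds the printed Tshz2 window fell by 1.28 ± 0.20 in the authors' deposited table (adjusted p = 1.12e-08), a smaller fall than in both called members, which was not tested as a difference. Next came Slc35f5, given above, and a member 32.3 kb from Pwwp2b at -2.01 ± 0.33 in the authors' deposited table. A member 16.6 kb upstream of Jag1, which encodes a Notch ligand, fell by 1.93 ± 0.32 (adjusted p = 1.5e-07), while the Jag1 promoter peak was at -0.33 ± 0.19 and was not called in the authors' deposited table. Members of Skint6, Slc25a51, Vmn1r191 and Ripor3 fell by 1.87, 1.86, 1.82 and 1.81 in the authors' deposited table. The Vmn1r191 member had the widest error (0.60, adjusted p = 0.025 in the authors' deposited table). Slc25a51 encodes a mitochondrial NAD+ transporter, and its promoter peak also fell, by 0.85 ± 0.21 (adjusted p = 0.000983) in the authors' deposited table. All 16 of these members stayed called after the window median was subtracted.

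**Figure D4:**
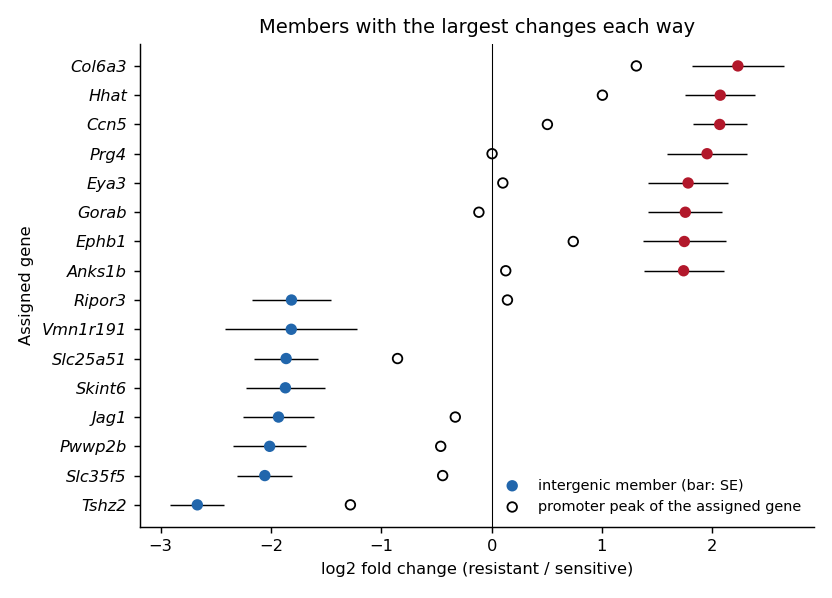
Log2 fold change (resistant over sensitive) of the 8 genes with the largest rise (red) and the 8 with the largest fall (blue) of a member above the median mean count, 1 member per gene and predicted genes left out; bars are the SE and open circles are the strongest promoter peak of the assigned gene where it was tested. The promoter value is nearer 0 than the member in each of the genes with an open circle. Members were picked by size of change and promoter peaks by mean count, so the comparison cannot show that distal sites change more than promoters.

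Members and promoters of the same gene were compared through the strongest promoter peak of the assigned gene, which existed for 5049 tested members of 2479 genes. Across these pairs, which share libraries and segments, Pearson's r was 0.27 (0.25 after window subtraction) and Spearman's rho 0.23, as a description. The 127 higher members with such a peak belonged to 108 genes, with a median promoter value of -0.01. Of these members, 30 had a promoter called higher (23.6%) and 7 one called lower. Members of 1 gene share 1 promoter peak, and the 30 include 7 members of Col6a2, 4 of Col6a3 and 3 of Hhat. Of the 351 lower members, of 317 genes, 93 had a promoter called lower (26.5%) and 3 one called higher, and the median was -0.37. Uncalled members stood beside promoters called higher in 1.90% and lower in 15.2% of 4571 cases, with a median of -0.23. Promoters thus carried the sign of the member in 48.8% of higher members and in 86.0% of lower ones, where 74.3% of promoters of uncalled members were negative.

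**Figure D5:**
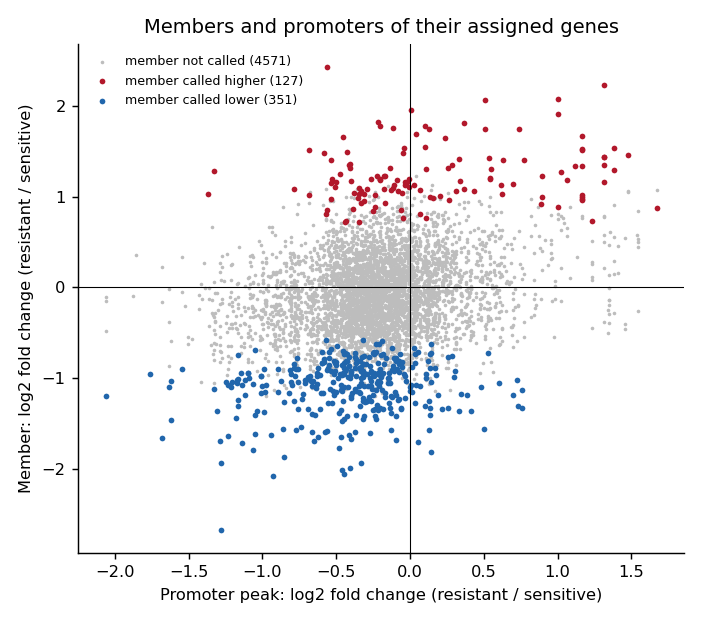
Each point is a tested member, with the log2 fold change of its gene's strongest promoter peak on the x axis and its own on the y axis (resistant over sensitive). Higher members (127, red) spread to both sides of 0 on the x axis, and most lower members (351, blue) lie left of it.

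Log2 fold changes of adjacent members were most alike over short distances. The correlation of log2 fold changes between adjacent tested members was 0.36 for 1661 pairs less than 5 kb apart, 0.30 for 1355 pairs at 5 to 20 kb, 0.13 for 1394 pairs at 20 to 100 kb and 0.06 for 1683 pairs at 100 to 1000 kb. Where both of a pair were called, 31 of 32 pairs within 5 kb and 18 of 19 at 5 to 20 kb had the same direction. At 20 to 100 kb 9 of 10 such pairs did, and at 100 to 1000 kb 4 of 7. Over all pairs, called or not, the signs matched in 62.9, 61.7, 56.1 and 53.6%, in order of distance. Members of a pair share libraries and segments, so these values describe them and carry no test. Runs of at least 2 called members of 1 direction, with gaps under 50 kb, held 42 higher members (27.5%) and 106 lower ones (25.5%).

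The members were next grouped by 18 gene lists, which give counts beside the 2.42% higher and 6.57% lower of all tested members and carry no test of their own. Genes of collagen chains had 44 tested members of 12 genes, with 15 higher and 1 lower and a median of 0.39. Called members belonged to only 5 of these genes. The higher ones were 7 of Col6a2, 4 of Col6a3, 2 of Col6a1 and 2 of Col5a1. Of these, 9 lay in the run on chromosome 10 given above, and neighbouring members are not independent. The study's own title names collagens, so the direction of this list is no independent evidence. Beside the collagen VI and Col5a1 members, the list's lower member belonged to Col15a1, a collagen of basement membrane zones, at -1.15 ± 0.42 in the authors' deposited table (adjusted p = 0.0479, and 0.153 after window subtraction). It lies 114 kb from the RefSeq start of Col15a1. Genes of collagen processing had 2 higher and 1 lower of 31, with a median of -0.04. In the authors' deposited table, the member of Serpinh1, the collagen chaperone, rose by 1.41 ± 0.29 (adjusted p = 3.81e-05) and that of Mia3, which helps to export procollagen from the endoplasmic reticulum, by 1.20 ± 0.31. The Tgm2 member, near a gene for a protein-crosslinking enzyme, fell by 0.60 ± 0.21 in the authors' deposited table and was not called after window subtraction (adjusted p = 0.314). Other matrix protein genes had 2 lower of 23, at Nid1 and Hspg2, which encode the basement membrane proteins nidogen and perlecan (-0.97 ± 0.23 and -0.95 ± 0.30 in the authors' deposited table). The Nid1 member lies 99.4 kb from the RefSeq start of Nid1. The DESeq2 test called no higher member of this list, and 1 had an unadjusted p under 0.05. The list leaves out Ccn5 and Prg4, whose higher members are given above, so the absence holds only for the genes listed. The Hspg2 call was lost after window subtraction (adjusted p = 0.079). Integrin and matrix protease genes had 1 higher and 1 lower member among 21. Mmp19, a matrix metalloproteinase gene, had a member at 0.91 ± 0.23, and Itga2, the gene of a collagen-binding integrin chain, had one at -0.91 ± 0.29 in the authors' deposited table.

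Mesenchymal transition genes had 4 higher of 29 tested members and a median of 0.09, and no lower member by the DESeq2 test, adjusted or at an unadjusted p under 0.05. The 4 belonged to Prrx1, Snai1 and Zeb2, which encode transcription factors of the transition, and to Vim, which encodes vimentin. In the authors' deposited table, the Prrx1 member rose by 1.67 ± 0.42 (adjusted p = 0.0014) and the Snai1 member by 1.17 ± 0.33 (adjusted p = 0.00637). The Vim member rose by 0.73 ± 0.25 and the Zeb2 member by 1.09 ± 0.31, while the Zeb2 promoter peak fell by 0.78 ± 0.28, all in the authors' deposited table. The Vim member lies over the start of the lncRNA gene Gm9875, and the Zeb2 member lies 132 kb from the RefSeq start of Zeb2. Epithelial identity genes had 3 lower of 25 and a median of -0.17, with no higher member by the DESeq2 test, adjusted or at an unadjusted p under 0.05. The lower ones were at Esrp1, an epithelial splicing regulator (-1.19 ± 0.25, adjusted p = 7.81e-05), Dsp, which encodes the desmosomal protein desmoplakin (-1.53 ± 0.39), and the keratin gene Krt19, at -1.10 in the authors' deposited table. The Krt19 call was lost after window subtraction (adjusted p = 0.123). The Esrp1 promoter peak fell by 2.06 in the authors' deposited table.

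Across the whole series, 10 of the 11 epithelial marker genes with a promoter peak were called lower, with mean counts from 30.8 to 785. Those peaks had a median mean count of 321, and among the members lower calls were more frequent at high mean counts. Of all tested peaks of the series, of any class, 5.02% were called higher and 7.34% lower. Promoter peaks of the 7 fibroblast markers had mean counts from 6.79 to 108, and 3 of the 6 with an adjusted p were called higher. Peaks were present for 5 of 6 endothelial markers (6.70 to 43.0) and 4 of 8 immune markers (7.23 to 30.9), without Ptprc, Cd68, Csf1r and Lyz2. Only 4 endothelial and 2 immune markers had an adjusted p, and the DESeq2 test called none of these. At an unadjusted p under 0.05 there were 1 endothelial and 0 immune markers among all those with a peak. The median promoter peak of all genes had a mean count of 56.8. The part of other cell types in the members' changes was not tested. Among the members, fibroblast markers had 10 tested members (median -0.14), endothelial markers 7 (-0.46), immune markers 4 (-0.42) and neuronal and neuroendocrine markers 5 (0.53), and the DESeq2 test called none of these. At an unadjusted p under 0.05 there were 0 fibroblast members, 1 lower endothelial member, 2 lower immune members and 1 higher neuronal member.

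Interferon and antigen presentation genes had 1 higher of 22 and a median of 0.22, the higher one 7.07 kb from Stat3, a transcription factor activated by cytokine receptors, at 1.06 ± 0.35 in the authors' deposited table (adjusted p = 0.024). Genes of chemokines, cytokines and checkpoint ligands had 1 higher and 2 lower of 42 and a median of -0.24. The Ptgs2 member, near the gene of cyclooxygenase 2, rose by 0.79 ± 0.24 in the authors' deposited table. The member of Fasl, which encodes a death receptor ligand, fell by 0.98 ± 0.26 and that of Ccl20, a chemokine gene, by 0.85 ± 0.26 in the authors' deposited table. The Ccl20 call was lost after window subtraction (adjusted p = 0.107).

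AP-1 and immediate early genes had 5 lower of 53 and a median of -0.09, with no higher call by the DESeq2 test and 1 higher member at an unadjusted p under 0.05. The examples with the smallest adjusted p were Btg1, an antiproliferative gene (-0.90 ± 0.26), and Errfi1, which encodes an inhibitor of EGF receptor signalling (-1.04 ± 0.33), in the authors' deposited table. Both calls were lost after window subtraction (adjusted p = 0.327 and 0.0704), which left 1 lower member in that list. TGF-beta and BMP genes had 1 higher and 1 lower of 48, both assigned to Smad5: the one over the Gm52066 start printed above and one at -0.73 ± 0.24 in the authors' deposited table, 12.95 kb away there and 42.3 kb from the RefSeq start. The second was not called after window subtraction (adjusted p = 0.0639). WNT, Notch and Hippo genes had 52 tested members, 1 higher and 2 lower. The member of Amotl2, whose protein binds YAP, was at 0.85 ± 0.28, and that of Ror2, a WNT receptor gene, was at -1.05 ± 0.31 in the authors' deposited table, beside the Jag1 member. Lung cancer drivers and tumour suppressors had 3 lower of 29, a median of -0.24 and no higher member by the DESeq2 test, adjusted or at an unadjusted p under 0.05. The Ccnd1 member, near the cyclin D1 gene, fell by 1.30 ± 0.32 in the authors' deposited table. The Nfe2l2 member, near the NRF2 gene, fell by 0.96 ± 0.25 in the authors' deposited table, a call lost after window subtraction (adjusted p = 0.0637). Lung and gut endoderm genes had 14 tested members (median -0.24), and genes of solute carriers, detoxification and NRF2 targets had 20 (median -0.13). The DESeq2 test called none of either, and at an unadjusted p under 0.05 they held 0 and 1 lower member.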

How the data were processed

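Mouse NSCLC organoids were profiled by ATAC-seq in 6 libraries, 3 sensitive and 3 resistant by their titles, and 1 table of the whole series was analysed. For each peak the authors deposited a signal (mean normalized count over the libraries), a log2 fold change with its log2 SE, a score (the Wald statistic), a p-value and an adjusted p-value. The submitters' processing notes name DESeq2 1.26.0, ChIPseeker 1.22.1, R 3.6.1, featureCounts, deepTools, GATK 4.1.3, SAMtools 1.8, Bowtie2 2.2.1 and the build mm10 for the authors' work, without roles. How peaks were called, whether duplicates were removed and whether reads were shifted for the transposase cut is not given in the sources used here. Kept duplicates could affect the errors, which was not tested. The 6 columns of values per library have names that match no label, so they were not used, and depth per library was not analysed here.

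Members were selected with pandas 2.3.3 and NumPy 2.4.6 in Python 3.11.15, and intervals come from SciPy 1.17.1. Calls are the authors' deposited Wald test at an adjusted p under 0.05, adjusted over all peaks with one. Window subtraction removed the median log2 fold change of all tested peaks in each 5 Mb window (of the chromosome where a window held under 20) and repeated the normal test and the adjustment over all tested peaks with the deposited SE. The trend alternative did so in 20 bins of mean count. Window subtraction and its repeated test were tried on simulated fold changes, and the trend alternative was not. A gene's promoter peak is its tested promoter-annotated peak (within 3 kb of any annotated start) with the highest mean count.

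The members, gene lists and motifs were chosen with earlier results of these data known. Named members are the 8 largest called changes each way above the median mean count, 1 member per gene and without predicted genes, up to 2 called members per list and direction by adjusted p, and genes with at least 3 called members in 1 direction. Other names (Vim, Zeb2, Krt19, Col5a1, Col6a1 and the lncRNA starts) were added after their values were seen. The planned motif search at peak centres needs genome sequence, so RefSeq GRCm38.p6 start windows held whole by members were searched instead. Those windows were chosen after the data were seen.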

Additional observations from a re-analysis of the deposited data

How the results depend on the processing

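The 153 higher and 416 lower calls (2.42 and 6.57% of 6334 tested) became 93 and 245 at an adjusted p under 0.01. Where mean counts reached 50 they were 28 and 177 (4.24 and 26.8% of 660 tested). At widths up to 2.5 kb they were 94 and 139 (2.16 and 3.19% of 4353). On all chromosomes they were 746 and 938 (4.51 and 5.67% of 16549). The share of higher among called members was 44.3% on all chromosomes and 26.9% on the chosen ones. Higher calls were 89 at distances up to 25 kb. Lower calls were 237 when a 2-fold change was also required and 233 after window subtraction, where higher calls were 170. Without the filter on mean count 129 and 336 were called, and with the trend removed 178 and 309. The median log2 fold change ran from -0.30 (mean counts from 50) to 0.03 (window subtraction, the only alternative with a positive median). The share of called members with the sign of their promoter, 76.2% (Wilson 95% interval 72.1 to 79.8%), was 70.8% after window subtraction and 86.7% where mean counts reached 50. That interval covers counting error only and is too narrow, since members of 1 gene share 1 promoter peak. The share pools 48.8% of higher and 86.0% of lower members, where 74.3% of promoters of uncalled members were negative. The AP-1 share in called members' windows, 25.0%, was 6.25% in the central 200 bases, and that of uncalled members fell from 10.8 to 5.76%. Fewer peaks enter under the stricter limits, and the cause of the other moves was not tested. No paired analysis was possible because the deposited comparison holds no values per library that the labels identify, and leaving out libraries in turn was not run for the same reason. Wider motif windows were not run, since the RefSeq windows hold 300. Members under a mean count of 14.7 had no adjusted p, which limits what could be called among them.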

Other observations

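The region around Prrx1, a homeobox gene of mesenchymal cells, was looked at after its values were seen. Within 200 kb of the gene on chromosome 1, 12 of 20 tested peaks of any class were called higher in resistant organoids, with a median log2 fold change of 1.12. Across chromosome 1, 4.34% of all tested peaks and 4.33% of tested members were called higher. Peaks of 1 region are neighbours and not independent. Of the 9 tested members in the Prrx1 region, 5 were called higher, at 1.22 to 1.76 in the authors' deposited table, and they lay 40.9 to 130 kb from Prrx1. The nearest-start rule assigned 3 of them to Mroh9, 1 to Gorab and 1 to Prrx1. In the authors' deposited table, the Prrx1 promoter peak rose by 1.17 ± 0.24 (adjusted p = 3.56e-05), and the Gorab promoter peak was at -0.11 ± 0.27 (adjusted p = 0.865).

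There were 10 called members whose assigned gene had a promoter peak called in the other direction. They were 7 of the 127 higher members with a tested promoter peak (5.51%) and 3 of the 351 lower ones (0.855%). Uncalled members stood beside promoters called lower in 15.2% and higher in 1.90% of cases. Opposite pairs were thus less frequent than those shares, a difference that was not tested. In the authors' deposited table, Ctsc, a lysosomal protease gene, had members at 1.51 and 1.02 beside a promoter peak at -0.69. In the authors' deposited table, Tank, a gene of TRAF signalling, had members at -1.13 and -1.32 beside a promoter peak at 0.76, and both member calls were lost after window subtraction (adjusted p = 0.0857 and 0.2). Ezh1, a Polycomb histone methyltransferase gene, had a member at 1.03 beside a promoter peak at -1.37 in the authors' deposited table. The others were assigned to Lrrc28, Zeb2, Ror2, Stc2 and Fam71a, and the Fam71a call was also lost after window subtraction (adjusted p = 0.0545). The members of Lrrc28 and Zeb2 lie 143 and 132 kb from the RefSeq start of the gene, and those of Ctsc 67.3 and 62.4 kb.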
